A study of Mus musculus with 4 samples.

Results

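Serpins are a family of structurally related proteins, most of which inhibit serine proteases by trapping them in an irreversible complex. The clade A members are mainly secreted by hepatocytes into plasma, and the clade B members are mainly intracellular inhibitors of leukocytes and epithelia. The smaller clades hold single regulators of coagulation, fibrinolysis and complement, together with a collagen chaperone and neuronal serpins. The members described here are all genes whose platform symbol starts with Serpin and that have a probe set naming 1 gene. They were 40 of the 18193 genes on the array, with 14 in clade A, 18 in clade B and 8 in clades C to I. Another 3 probe sets name several serpins each and are given apart, and serpin genes with no probe set here, such as Serpina3k, were not analysed here.

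The series measured total RNA labelled as coming from marrow-derived cells in the fibrotic livers of C57BL/6 mice, with liver tissue as its named source. All animals received 30 injections of carbon tetrachloride, a liver toxin, at 1 ml/kg. In the last 7 days before the final injection, the G-CSF group was given recombinant human G-CSF, the cytokine that drives neutrophil production, at 100 µg/kg, and the PBS group was given phosphate-buffered saline with 0.1% mouse serum albumin. Each group has 2 samples, on 1 Affymetrix mouse array each; age, sex and pooling of animals are not given in the sources used here, so a p-value measures only the spread between these arrays, which may be technical.

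Values are MAS5 signals, the authors' summary of each probe set on a linear scale. Differences are G-CSF minus PBS of log2(signal + 23), which understates the change of dim genes, with the standard error of the limma fit (SE, n = 2 arrays per group). Every count of genes 2-fold apart is on that scale too, so a dim gene can differ 2-fold in signal and not be counted, as Serpinb9b between the PBS arrays and Serpina4-ps1 between the G-CSF arrays. The 12187 genes whose signal averaged over 95.0 were tested. An array's background was taken as its highest signal over 27 bacterial control probe sets without target in the sample, 63.0 to 106 by array. The number of arrays limits the precision.

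Facts of the whole series touch every serpin result. PBS replicate 1 stood apart, with a Pearson correlation of 0.813 to 0.844 with the other arrays over 12187 genes, against 0.939 to 0.974 among those. The hepatocyte markers fixed for the check of the labels (Alb, Ttr, Apoa1, Cyp2e1, Cps1, Fgb, Hpx and Tat) were all tested, with signals of at least 408 on each array. Their summed signal was 167099 on PBS replicate 1 and 274454 on PBS replicate 2, against 244750 and 232225 on the G-CSF arrays. RNA of hepatocyte genes was thus measured in every sample, and no sort is described in the labels. The 3' to 5' ratio of the Gapdh control probe sets was 15.7 and 14.8 on the PBS arrays against 20.2 and 19.1 on the G-CSF arrays. In such bulk RNA, fewer cells of a type and less RNA per cell cannot be told apart.

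Of the 40 serpins, 22 were tested: 9 of clade A, 6 of clade B and 7 of clades C to I. Serpinb1a was far higher on both G-CSF arrays, and it was the 1 tested serpin at least 2-fold higher without overlap of the groups. No tested serpin was at least 2-fold lower without overlap. Over all genes tested, 4.04% were that much higher and 1.52% that much lower, so the serpins' counts of 1 and 0 of 22 lie near the background. The plasma serpins of clades A and C to G mostly had G-CSF signals lying between those of the PBS arrays.

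By limma with Benjamini-Hochberg adjustment over all genes, 0 of 22 serpins passed at an adjusted p of 0.05, as did 0 of 12187 genes (0.00%). At an unadjusted p of 0.05, 1 serpin passed, against 3.52% of all genes. The median difference was 0.28 over the 22 serpins and 0.07 over all genes tested. The members lay above 0 in 15 of 22 cases, against 55.9% of all genes. Differences were read from this fit because an exact permutation test of 2 arrays against 2 cannot go below 0.33.

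**Figure D1:**
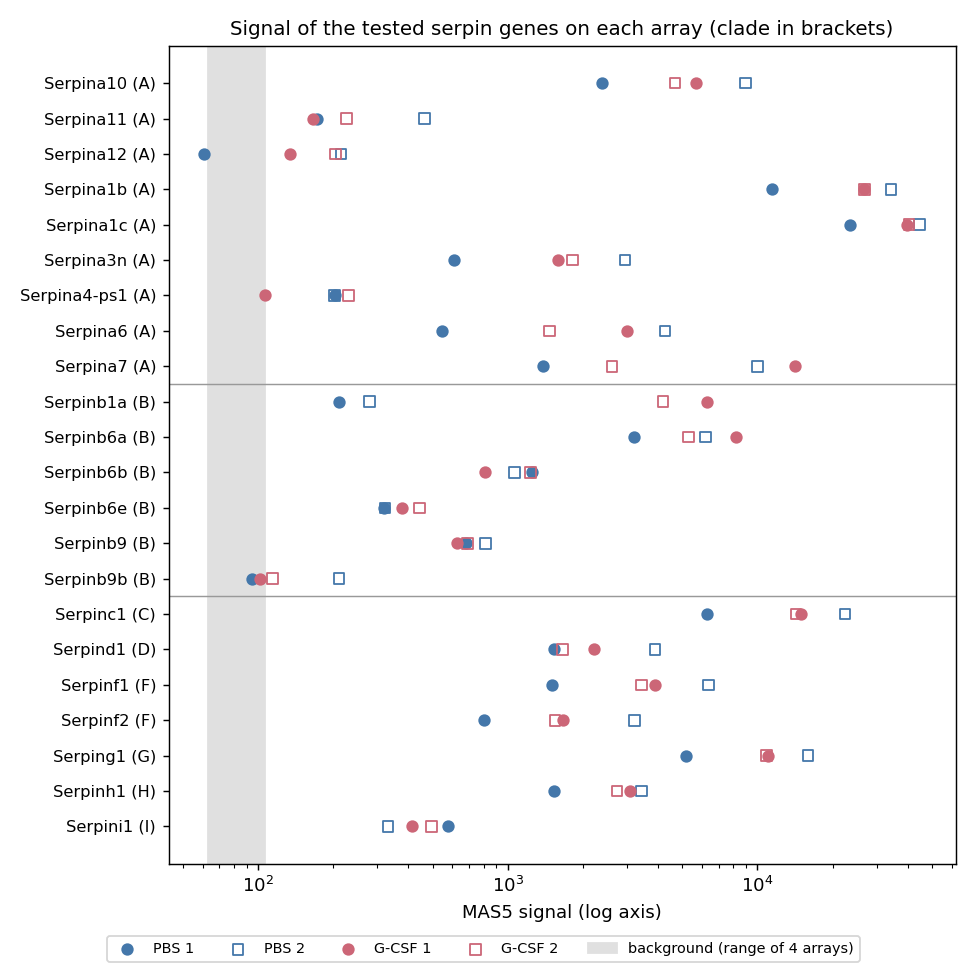
MAS5 signal (log axis) of the 22 tested serpin genes on each array, with circles for replicate 1 and open squares for replicate 2, PBS in blue and G-CSF in red, and the range of the background over the 4 arrays in grey. Serpinb1a has both G-CSF signals (4181 and 6264) far to the right of both PBS signals (210 and 279), while most clade A and clade C to H genes have PBS replicate 1 at the left and PBS replicate 2 at the right.

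The intracellular serpins of clade B were led by Serpinb1a, an inhibitor of the neutrophil proteases elastase, cathepsin G and proteinase 3. Its signals were 210 and 279 on the PBS arrays against 6264 and 4181 on the G-CSF arrays, replicate 1 first here and in all pairs that follow. Both G-CSF arrays thus lay far above both PBS arrays, and all 4 lay above background. The difference was 4.28 ± 0.38, which is 19.4-fold, with an unadjusted limma p of 8.46e-05 and an adjusted p of 0.0859. It was 4.46 against PBS replicate 1 alone and 4.09 against PBS replicate 2 alone.

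The other probe set of Serpinb1a gave 82.4 and 107 on the PBS arrays against 1245 and 857 on the G-CSF arrays, a difference of 3.17. On that probe set PBS lay above background on 1 of its arrays only, so the size of the difference there rests on a signal near background. The groups did not overlap on either probe set. The second probe set has a suffix that marks possible cross-hybridization, which the first has not. When 1 array was left out, the adjusted limma p of Serpinb1a was 0.000997 (no PBS replicate 1), 0.000185 (no PBS replicate 2) or 0.0334 (no G-CSF replicate 2), each past the threshold. It was 0.108 when G-CSF replicate 1 was left out. Each such fit has 1 arm of a single array, which is assumed to vary like the other arm. Serpinb1b, its close paralogue, was listed at 1.10 and 1.13 with PBS and at 17.3 and 17.8 with G-CSF, below background on every array.

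Neutrophil transcripts differed in the same direction as Serpinb1a. The 8 neutrophil markers tested, of 10 fixed, were all at least 2-fold higher with G-CSF without overlap, against 4.04% of all genes tested. Their signals summed to 25347 and 7806 on the PBS arrays against 230856 and 195721 on the G-CSF arrays. Cxcr2 had PBS signals of 37.4 and 23.5, both below background, and passed the filter on mean signal only through its G-CSF arrays. No marker of the list was at 0. The 3' to 5' ratios of Gapdh were higher on both G-CSF arrays too. The part of either in the Serpinb1a difference was not tested.

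The proteases that Serpinb1a inhibits had the same order of groups. Elane, neutrophil elastase, had signals of 59.7 and 117 on the PBS arrays against 1362 and 2461 on the G-CSF arrays. Ctsg, cathepsin G, had 84.9 and 17.9 on the PBS arrays, both below background, against 7713 and 13157 on the G-CSF arrays, at least 81.9-fold higher. Prtn3, proteinase 3, had 136 and 403 on the PBS arrays against 10833 and 13959.7 on the G-CSF arrays, a difference of 5.57 ± 0.56.

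The groups did not overlap for any of these 3, and none passed after adjustment (limma adjusted p = 0.131, 0.0676 and 0.101). Within the G-CSF group, G-CSF replicate 1 was the higher array for Serpinb1a, whereas G-CSF replicate 2 was the higher array for Elane, Ctsg and Prtn3. Each is 1 array and the groups hold 2, so the replicates' order has no test.

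**Figure D2:**
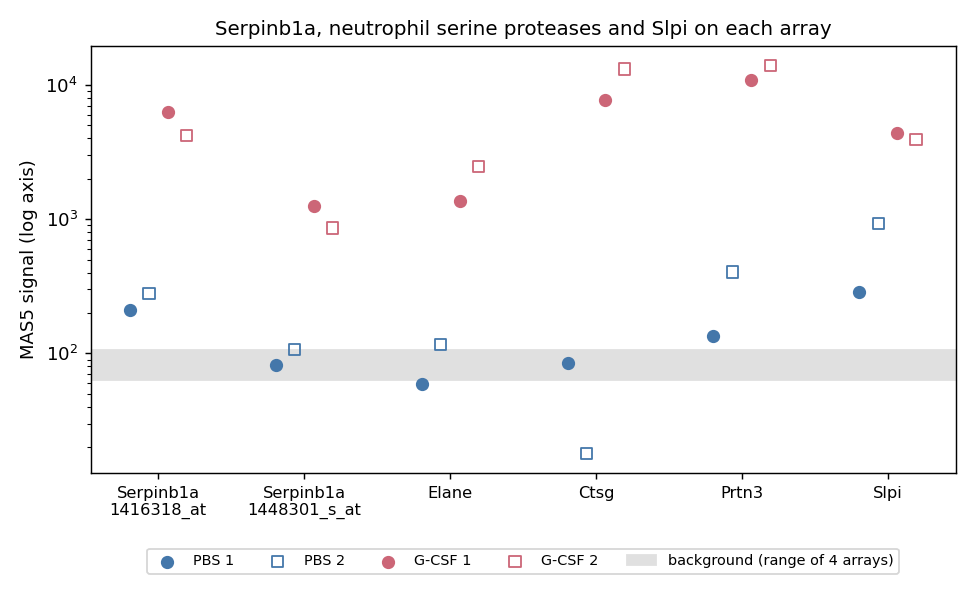
MAS5 signal (log axis) on each array for both probe sets of Serpinb1a, for the neutrophil proteases Elane, Ctsg and Prtn3, and for Slpi, with symbols as in the plot of all tested serpins. In each column both G-CSF arrays lie above both PBS arrays, and the PBS signals of Ctsg (84.9 and 17.9) are below the background of their arrays.

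The tested genomic neighbours of Serpinb1a were not at least 2-fold apart between the groups. In the RefSeq table of mouse assembly GRCm38.p6, 17 clade B loci lie on its chromosome, in the order Serpinb1a, a pseudogene, Serpinb1c, Serpinb6b, Serpinb9, Serpinb9b, Serpinb1b and further members of the Serpinb6 and Serpinb9 groups. Of these, 11 were measured and 6 tested. Serpinb1a was the 1 at least 2-fold higher without overlap, where 4.04% of all genes tested were. The other clade B group, which runs from Serpinb5 to Serpinb8 on another chromosome, had 7 of its 12 loci measured and 0 tested.

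Serpinb6a, an intracellular inhibitor of trypsin-like proteases and cathepsin G, had signals of 3215 and 6199 on the PBS arrays against 8233 and 5299 on the G-CSF arrays. G-CSF replicate 2 lay between the PBS arrays, and the difference was 0.56 ± 0.46. Its paralogue Serpinb6b had 1248 and 1062 on the PBS arrays against 808 and 1234 on the G-CSF arrays, a difference of −0.20 ± 0.37 with overlapping groups. Serpinb6e, another paralogue, had 318 and 322 on the PBS arrays against 377 and 442 on the G-CSF arrays.

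The groups of Serpinb6e did not overlap, as for 30.7% of all genes, but the difference was 0.33 ± 0.32. Its probe set has the suffix that marks possible cross-hybridization, so signal from related Serpinb6 transcripts cannot be told apart there. Serpinb9, an inhibitor of granzyme B that protects cytotoxic cells from their own protease, had 680 and 812 on the PBS arrays against 624 and 689 on the G-CSF arrays (−0.18 ± 0.32), with overlapping groups. Its other probe set gave −0.11, also with overlap.

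Serpinb9b had 94.9 and 210 on the PBS arrays against 102 and 114 on the G-CSF arrays (−0.34 ± 0.50), with PBS replicate 1 below background. Transcripts of T cells and cytotoxic cells did not share 1 order of arrays. Gzma, granzyme A, was at 34946 in PBS replicate 1 and 301 in PBS replicate 2, against 196 and 111 with G-CSF. Gzmb, the granzyme that Serpinb9 inhibits, named after its values were seen, was lowest in PBS replicate 1, with 46.3 and 239 on the PBS arrays against 163 and 116 on the G-CSF arrays.

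Among the secreted serpins of clade A, the antitrypsin genes encode the main plasma inhibitor of neutrophil elastase, which in mice is a group of near-identical neighbours. Serpina1b and Serpina1c were measured singly, and the promoter windows of both are shown because they carry the same short hepatocyte factor motif at nearly the same place. Serpina7 is shown as a less related clade A member that holds it too. The windows are the 150 bases before the annotated start, from RefSeq on GRCm38.p6, read 5′ to 3′ along the gene. Capitals mark matches to GTTAAT, a half-site of the hepatocyte factor HNF1, or to TTNNGCAA, a C/EBP-type motif, searched on both strands.
Serpina1b, chr12:103738190-103738339, minus strand: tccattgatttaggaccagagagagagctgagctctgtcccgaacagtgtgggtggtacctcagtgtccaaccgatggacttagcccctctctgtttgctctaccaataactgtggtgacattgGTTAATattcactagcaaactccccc
Serpina1c, chr12:103904951-103905100, minus strand: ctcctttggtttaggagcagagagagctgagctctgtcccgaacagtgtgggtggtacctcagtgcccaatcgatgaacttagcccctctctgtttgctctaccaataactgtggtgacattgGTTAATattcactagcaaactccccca
Serpina7, chrX:139085237-139085386, minus strand: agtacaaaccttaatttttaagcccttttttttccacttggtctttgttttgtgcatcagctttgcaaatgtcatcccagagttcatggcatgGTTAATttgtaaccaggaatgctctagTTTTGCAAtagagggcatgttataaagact

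The GTTAAT match lay 26 bases before the start in Serpina1b, 27 bases before it in Serpina1c and 57 bases before it in Serpina7. RefSeq gave a promoter for 17 of the 22 tested serpins, and motifs were counted over 250 bases before the start. No window was available for Serpinb1a, Serpina6, Serpina10, Serpina4-ps1 or Serping1, so their promoters were not searched. GTTAAT or its reverse ATTAAC occurred in 3 of 6 clade A windows, 0 of 5 clade B windows and 0 of 6 windows of clades C to I, against 6.52% of 27025 promoters. TTNNGCAA or TTGCNNAA occurred in 3 of 6 (Serpina12, Serpina1b and Serpina7), 0 of 5 and 0 of 6, against 9.55%. The Serpina1b match to it lay 161 bases before the start, outside the 150 bases printed. The STAT-type motif TTCNNNGAA, its own reverse, occurred in Serpina11, in Serpinb6a and in 0 of 6 windows of clades C to I, against 7.18%. The matches did not overlap one another, and these counts describe letters in a window only. The Serpina1b and Serpina1c windows were identical at 90.9% of aligned positions, so their matches are not separate evidence.

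Serpina1b had signals of 11484 and 34253 on the PBS arrays against 26698 and 26887 on the G-CSF arrays. The G-CSF arrays were nearly equal and lay between the PBS arrays, with a difference of 0.43 ± 0.55. Its other probe set also had both G-CSF arrays between the PBS arrays, with 12020 and 31151 against 26445 and 26126. Serpina1c had 23470 and 44689 on the PBS arrays against 39559 and 40402 on the G-CSF arrays (0.30 ± 0.37), again between the PBS arrays.

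The probe sets that name several antitrypsin genes also had both G-CSF arrays between the PBS arrays. The set for Serpina1d and Serpina1a gave 10478 and 34249 on the PBS arrays against 23006 and 23888 on the G-CSF arrays. The set for Serpina1e, Serpina1c and Serpina1b gave 337 and 2016 on the PBS arrays against 963 and 987 on the G-CSF arrays. The set for Serpinb9h, Serpinb9g, Serpinb9e and Serpinb9f lay below background on all arrays. Because the antitrypsin transcripts are so alike, these probe sets and those of Serpina1b may each take signal from several of the genes.

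The acute-phase and hormone-binding members of clade A followed. Serpina3n, a homologue of antichymotrypsin that rises in inflammation, had 607 and 2946 on the PBS arrays against 1583 and 1816 on the G-CSF arrays, so G-CSF lay between the PBS arrays (0.33 ± 0.77). Serpina6, corticosteroid-binding globulin, had 544 and 4261 on the PBS arrays against 2993 and 1469 on the G-CSF arrays (0.44 ± 1.01). Serpina7, thyroxine-binding globulin, had 1388 and 10023 on the PBS arrays against 14115 and 2618 on the G-CSF arrays (0.70 ± 1.20).

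Serpina6 and Serpina7 were the 2 tested serpins whose G-CSF arrays were over 2-fold apart on the log2(signal + 23) scale, with replicate 1 above replicate 2 in both. Over all genes tested, 97.2% had G-CSF arrays within 2-fold. G-CSF replicate 2 minus replicate 1 was −2.42 for Serpina7 and −1.02 for Serpina6.

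The other clade A members were the following. Serpina10 inhibits activated coagulation factor X together with protein Z. It had 2377 and 8964 on the PBS arrays against 5677 and 4666 on the G-CSF arrays (0.15 ± 0.67). Its only probe set has the suffix for possible cross-hybridization. Serpina12, the adipokine vaspin, had 60.9 and 215 on the PBS arrays against 134 and 204 on the G-CSF arrays (0.42 ± 0.62), and it was below background on PBS replicate 1. Both lay between the PBS arrays with G-CSF.

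Serpina11 had 172 and 464 on the PBS arrays against 166 and 226 on the G-CSF arrays (−0.50 ± 0.55). The transcribed pseudogene Serpina4-ps1 had 204 and 202 on the PBS arrays against 107 and 230 on the G-CSF arrays (−0.32 ± 0.46), and was the 1 clade A member whose PBS arrays were nearly equal.

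The coagulation and fibrinolysis inhibitors of clades C, D and F shared an order of arrays. Serpinc1, antithrombin, had 6262 and 22472 on the PBS arrays against 14971 and 14289 on the G-CSF arrays (0.30 ± 0.63). Serpind1, heparin cofactor II, which inhibits thrombin, had 1538 and 3883 on the PBS arrays against 2213 and 1655 on the G-CSF arrays (−0.35 ± 0.53). Serpinf2, the plasmin inhibitor antiplasmin, had 801 and 3211 on the PBS arrays against 1662 and 1547 on the G-CSF arrays (−0.01 ± 0.69).

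In each of these 3 genes both G-CSF signals lay between the PBS signals. Serpinf2 was the 1 tested serpin besides Serpinb1a that passed when PBS replicate 1 was left out, with a difference of −0.99 (limma adjusted p = 0.0403). Without PBS replicate 2 it passed in the other direction, with 0.98 (adjusted p = 0.0107). Its direction thus depended on which PBS array was used.

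Serpinf1, the non-inhibitory pigment epithelium-derived factor, had 1498 and 6365 on the PBS arrays against 3893 and 3434 on the G-CSF arrays (0.24 ± 0.72). Serping1, the inhibitor of the complement proteases C1r and C1s, had 5187 and 15927 on the PBS arrays against 11026 and 10894 on the G-CSF arrays (0.27 ± 0.58). Serpinh1, a collagen chaperone of the endoplasmic reticulum that collagen-producing cells need, had 1535 and 3425 on the PBS arrays against 3088 and 2743 on the G-CSF arrays (0.34 ± 0.48). All 3 had G-CSF between the PBS arrays on these probe sets. The other probe set of Serpinh1, above background on all arrays, had 500.3 and 830.3 on the PBS arrays against 571 and 929.7 on the G-CSF arrays, so G-CSF replicate 2 was the highest array there. The brighter Serpinh1 probe set has the suffix for possible cross-hybridization.

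The collagen genes that Serpinh1 serves are in the list of fibroblast and stellate markers. In that list 0 of 8 tested genes were at least 2-fold apart without overlap, with a median difference of 0.37. Over all genes tested, 4.04% were that much higher and 1.52% that much lower. Serpini1, neuroserpin, an inhibitor of tissue plasminogen activator, had 578 and 331 on the PBS arrays against 412 and 496 on the G-CSF arrays (0.04 ± 0.40). It was the 1 tested member of clades C to I with PBS replicate 1 highest, and its next probe set, with 270 and 123 against 197 and 168, had that order too.

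The distance between the PBS arrays was thus larger than that between groups for most plasma serpins. PBS replicate 1 was the lowest array and PBS replicate 2 the highest in 6 of 9 clade A genes, 1 of 6 clade B genes and 6 of 7 genes of clades C to I, against 21.8% of all genes tested. PBS replicate 2 was at least 2-fold above PBS replicate 1 in 7 of 9, 0 of 6 and 6 of 7 of them, against 20.0% of all genes. PBS replicate 1 was the lowest array in 17 of 22 serpins, against 47.0% of all genes, and PBS replicate 2 the highest in 15 of 22, against 28.4%. The mean of the G-CSF arrays lay above PBS replicate 1 and below PBS replicate 2 in 15 of 22, against 31.4%. The median of PBS replicate 2 minus PBS replicate 1 was 1.57 in clade A, 0.31 in clade B, 1.61 in clades C to I and 0.16 over all genes tested. In clade A and clades C to I the G-CSF arrays were closer, with a median absolute distance of 0.40 and 0.17. In clade B they were not, with a median absolute distance of 0.40 against 0.31 between the PBS arrays.

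Most hepatocyte markers moved with this pattern. PBS replicate 1 was the lowest array for 8 of 8 of them, against 47.0% of all genes tested. For 5 of 8 PBS replicate 2 was also the highest, against 21.8%. Their median of PBS replicate 2 minus PBS replicate 1 was 1.39. Alb and Ttr differed little between the PBS arrays (0.09 and 0.06), and both G-CSF arrays lay above both PBS arrays for them. Their signals, from 43301 to 58705, lay near the highest signals of the arrays, 58436 to 63693. A small difference and a limit of the scale cannot be told apart there. The markers of macrophages and Kupffer cells had a median of 1.33, with summed signals of 29020 and 71481 on the PBS arrays against 54865 and 50683 on the G-CSF arrays. The median was 1.78 for B cell and 1.44 for endothelial markers, with 3 tested in each list. It was 0.88 for bile duct, 0.77 for fibroblast and stellate, 0.72 for erythroid, 0.42 for platelet and −1.65 for neutrophil markers. T cell markers were highest in PBS replicate 1 for all tested but Cd8a, with a sum of 13132 in PBS replicate 1, 1905 in PBS replicate 2, and 2867 and 1513 with G-CSF. No marker of these lists was at 0, and their part in the serpin pattern was not tested.

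When each array was set relative to its hepatocyte markers, a scaling chosen after the data were seen, the median difference was 0.03 in clade A and −0.06 in clades C to I. That scaling moved the median of all genes tested from 0.07 to −0.23. Under it Serpinb1a differed by 3.98 (limma adjusted p = 0.367).

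**Figure D3:**
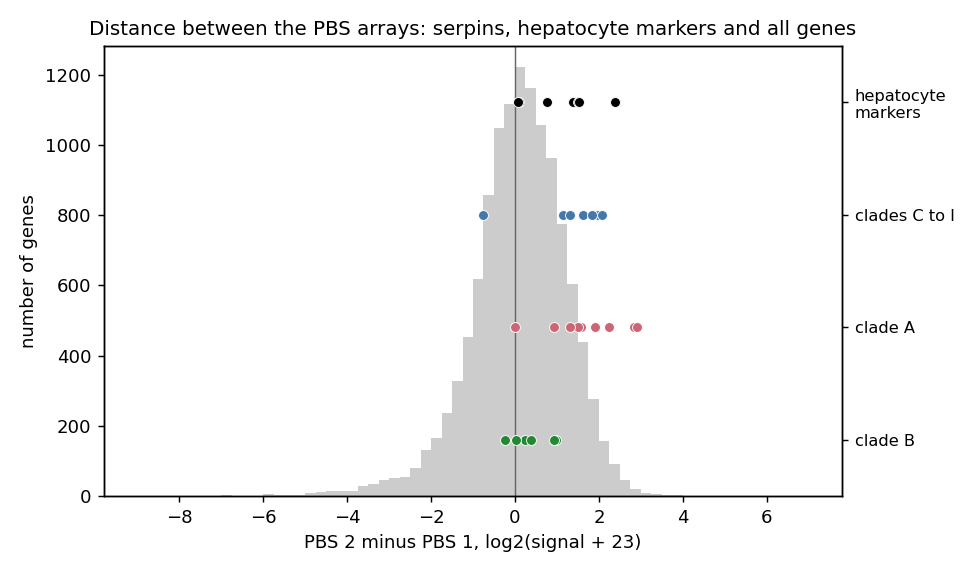
Distance between the PBS arrays, as PBS replicate 2 minus PBS replicate 1 of log2(signal + 23): grey bars count all 12187 genes tested (left axis), and points show the tested serpins of each clade group and the 8 hepatocyte markers, 1 row per set. Most points of clades A and C to I lie right of 1, as do most hepatocyte markers, while the 6 clade B points lie between −0.23 and 0.99.

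Against each PBS array alone, the direction of the plasma serpins turned. Against PBS replicate 1 the median difference was 1.17 in clade A and 0.98 in clades C to I, and against PBS replicate 2 it was −0.72 and −0.62. Over all genes tested these medians were 0.19 and 0.00066. In clade B they were 0.24 and 0.0028. Without PBS replicate 2, 12 of 22 serpins passed limma, all of them higher, where 38.5% of all genes passed. Without PBS replicate 1, 2 of 22 passed, Serpinb1a higher and Serpinf2 lower, where 4.23% of all genes passed.

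By size, 11 serpins were at least 2-fold higher without overlap against PBS replicate 1 alone, where 16.5% of all genes were. Against PBS replicate 2 alone, 3 serpins (Serpina11, Serpina6 and Serpind1) were at least 2-fold lower without overlap, where 2.44% of all genes were, and 1 (Serpinb1a) was higher, where 4.48% were. No serpin was that much lower against PBS replicate 1 alone, where 11.1% of all genes were. Without G-CSF replicate 1, 0 serpins passed limma (0.0492% of all genes), 1 was at least 2-fold higher (4.91%) and 0 lower (2.19%). Without G-CSF replicate 2, 1 passed (0.181%), 2 were at least 2-fold higher, Serpina7 and Serpinb1a (4.99%), and 0 lower (2.54%). With arrays weighted by their quality, 1 passed, Serpinb1a, where 0.271% of all genes did.

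**Figure D4:**
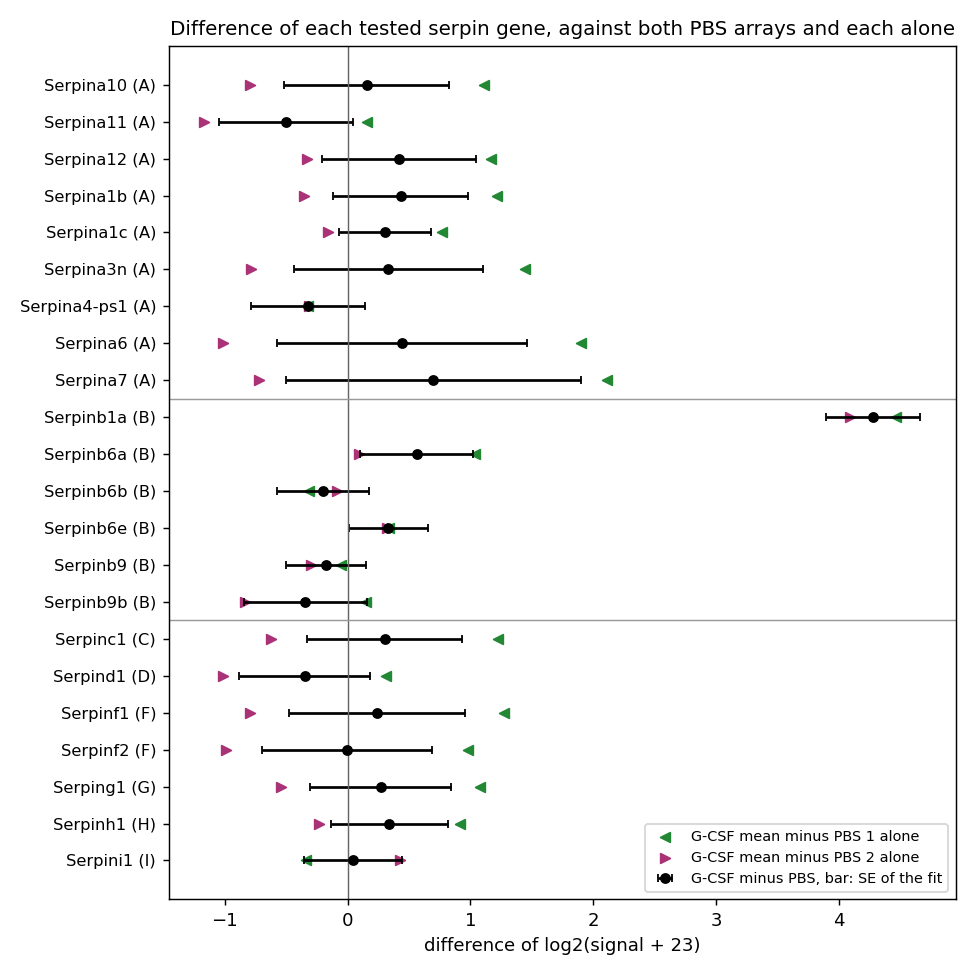
Difference of log2(signal + 23) for each tested serpin: black points with bars give G-CSF minus PBS with the SE of the fit (2 arrays per group), and triangles give the G-CSF mean minus PBS replicate 1 alone (green) and minus PBS replicate 2 alone (purple). For Serpinb1a all 3 values lie between 4.09 and 4.46, whereas for Serpinc1 they run from −0.62 to 1.22.

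Of the 18 serpins below the filter on mean signal, 15 lay below background on every array. Serpinb2, a plasminogen activator inhibitor of macrophages, reached background on G-CSF replicate 1 alone, with signals of 10.5 and 29.6 on the PBS arrays against 89.4 and 2.09 on the G-CSF arrays. Serpinb8 had 20.7 and 97.0 on the PBS arrays against 41.0 and 80.1 on the G-CSF arrays, above background on replicate 2 of each group. Serpina3a was above background on G-CSF replicate 2 alone, at 66.3. The others, with signals from 1.10 up to 56.4 on any array, included Serpinb5, Serpinb7 and Serpina5, and no difference is given for them.

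The proteases that serpins control were described with a fixed list of 27, of which 24 had a probe set and 23 were tested. Over all genes tested, 4.04% were at least 2-fold higher without overlap and 1.52% that much lower. Of the 23 proteases, 3 were that much higher, the neutrophil proteases Elane, Ctsg and Prtn3 given above, and 1 was lower. That 1 was Gzma, which rests on PBS replicate 1: its difference was −4.30 ± 2.14, and PBS replicate 2 lay at 301 against 196 and 111. Elane and Ctsg passed the filter on mean signal only through their G-CSF arrays. None of the 23 passed limma after adjustment, and the median difference of the list was 0.10.

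Over the 23 tested proteases, PBS replicate 1 was the lowest array and PBS replicate 2 the highest for 17, against 21.8% of all genes tested. This was the order seen in most plasma serpins. The list holds the coagulation, plasmin and complement enzymes that the plasma serpins inhibit, and its median of PBS replicate 2 minus PBS replicate 1 was 1.56.

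Of 6 genes for serpin cofactors and clearance, 5 were tested. Plaur, the urokinase receptor, was the 1 at least 2-fold higher without overlap, where 4.04% of all genes tested were. It had 237 and 193 on the PBS arrays against 821 and 413 on the G-CSF arrays (1.36 ± 0.44; limma adjusted p = 0.988). The median difference of the list was 0.41.

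Among 20 tested inhibitors outside the family, of 21 listed, 3 were at least 2-fold higher without overlap and 0 lower. That count takes signals below background as listed. Over all genes tested, 4.04% were that much higher and 1.52% that much lower. The median difference of the list was 0.36. For A2m, 1 of the 3, the PBS signal was not above background, and its bound lies under 2-fold. Slpi, a secreted inhibitor of elastase and cathepsin G, had 284 and 930 on the PBS arrays against 4355 and 3904 on the G-CSF arrays (2.94 ± 0.60; limma adjusted p = 0.551). Cst7, a cystatin of leukocytes, had 86.6 and 71.9 on the PBS arrays, below background, against 393 and 484 on the G-CSF arrays, at least 3.72-fold higher. A2m, a macroglobulin, had 54.5 and 50.2 on the PBS arrays, below background, against 163 and 122 on the G-CSF arrays, at least 1.33-fold higher. Cst7 and A2m passed the filter on mean signal only through their G-CSF arrays. None of the 20 passed limma after adjustment.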

How the data were processed

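Per the submitters' processing notes, the authors computed MAS5 signals; no version is named. The deposited intensity values are linear, 1 per probe set and array (45101 probe sets), from 40 ng of total RNA per the labels' protocols. The 2% trimmed mean was 500.0 on every array, so the scaling was kept. Symbols came from the platform annotation, and all 40 serpins matched a RefSeq gene of the same symbol by Entrez ID. Where a gene had several probe sets, the one brightest on average stood for it. A pseudocount of 23 was added before log2, and the filter of 95.0 is the median of the mean signals of non-control probe sets.

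limma 3.58.1 in R 4.3.3 compared the groups with eBayes and a trend, two-sided, adjusted by Benjamini-Hochberg over 12187 genes (2 residual degrees of freedom, prior 3.13), and was tested on simulated data. Python 3.11.15 did the rest. Samples were grouped by their titles. The members, lists and tests were chosen with earlier results of these data known, and the background limit and the hepatocyte scaling after the data were seen. The naming rule took serpins at least 2-fold apart without overlap, a fixed list of serpins, serpins above background through 1 or 2 arrays, and listed other genes at least 2-fold apart without overlap; the remaining tested serpins (Serpina11, Serpina12, Serpina4-ps1, Serpinb6e and Serpinb9b), the paralogue Serpinb1b and the several-gene probe sets were added after their values were seen. Alternatives were other scalings, pseudocounts, filters, variance models and probe sets, the replicate block and each array left out.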

Additional observations from a re-analysis of the deposited data

Results flagged for a closer look

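The other probe set of Serpinb1a, which the comparison of genes did not use, also had both G-CSF arrays above background and more than 2-fold above both PBS arrays. Its signals were 82.4 and 107 on the PBS arrays against 1245 and 857 on the G-CSF arrays, a difference of 3.17 on the log2(signal + 23) scale. The suffix of this probe set marks possible cross-hybridization. Dixon's test was not applied, since no group has 4 or more arrays.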

How the results depend on the processing

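Serpinb1a stayed higher with G-CSF in all 17 alternatives, by 3.72 to 4.57, with adjusted limma p from 1.38e-05 to 0.367. The number of serpins past limma was 0 in the main comparison and 1 with array weights and with the replicate block (Serpinb1a, adjusted p = 0.020 and 1.38e-05). It was 0 to 12 with each array left out. The counts at least 2-fold higher and lower without overlap were 1 to 11 and 0 to 3 with each array left out. The replicate numbers share only a number: same-numbered arrays had deviations that correlated at −0.038, and the block raised the calls over all genes from 0 to 92. With each array left out, the median difference of clades C to I ran from −0.62 to 0.98; that of clade A ran from −0.72 to 1.17 and that of clade B from −0.01 to 0.24. The clade B median was −0.19 with specific probe sets only and −0.22 relative to hepatocyte markers. With each array left out, 14 of the 17 serpins recomputed under the alternatives changed sign, with these ranges: Serpina10 −0.80 to 1.11, Serpina1b −0.35 to 1.22, Serpina1c −0.16 to 0.77, Serpina3n −0.79 to 1.45, Serpina6 −1.01 to 1.90, Serpina7 −0.72 to 2.11, Serpinb6b −0.50 to 0.10, Serpinc1 −0.62 to 1.22, Serpind1 −1.01 to 0.31, Serpinf1 −0.80 to 1.27, Serpinf2 −0.99 to 0.98, Serping1 −0.54 to 1.08, Serpinh1 −0.23 to 0.91 and Serpini1 −0.34 to 0.42. Outside those 17, Serpina11, Serpina12 and Serpinb9b also differed in sign between the PBS arrays taken alone (0.16 and −1.16, 1.17 and −0.33, 0.15 and −0.84). Relative to hepatocyte markers, Serpina10 was −0.14, Serpinf1 −0.060, Serping1 −0.030 and Serpini1 −0.26, and with median centring Serpini1 was −0.018. The cause was not tested. With 2 arrays per group, differences of most plasma serpins were smaller than the distance between the PBS arrays, so a treatment difference of that size was not detectable here.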
